A study of Mus musculus with 9 samples.

Results

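Cytosolic ribosomal protein genes encode the proteins that, with ribosomal RNA, build the large and small subunits of the ribosome outside mitochondria. They were read here in a line of mesenchymal stromal cells (MSC) from mouse bone marrow. Members were the genes of the deposited table named Rpl or Rps followed directly by a digit, with Rplp0, Rplp1, Rplp2 and Rpsa. Names of ribosomal S6 kinases and of pseudogenes were dropped. The rule, which uses names only, took 87 of 21959 genes. By their names 43 were proteins of the large subunit, 31 of the small subunit and 3 of the stalk of the large subunit. A further 8 were paralogues, copies of a ribosomal protein gene that may replace it in some tissues. The other two matched by name without being ribosomal proteins: Rps19bp1, a binding partner of Rps19, and Rps23rg1, a mouse retrogene of Rps23. Of 78 core names looked for, 77 were in the table.

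The cells, labelled as SV40 mesenchymal stromal cells and BMMSC, were kept for 24 h with one of 3 additions, in medium with 10% fetal bovine serum. Control PF was peritoneal interstitial fluid of control mice, TNBS PF was the fluid of mice given TNBS (trinitrobenzene sulfonic acid, a chemical used to induce colitis) for 3 days, and PBS was the buffer without fluid. Each group had 3 libraries of total RNA, 9 in all, and no label says whether the libraries came from separate cultures or fluid donors, so p-values measure the spread between these libraries, which may be technical. A single cell line was used, and PF is a mixture whose composition was not given.

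Ribosomal proteins are made in amounts matched to ribosomal RNA, and their mRNAs are among the most abundant of a growing cell. In mammals most of these mRNAs begin with a C followed by a tract of C and T, the terminal oligopyrimidine (TOP) tract, through which the kinase mTOR and the RNA-binding protein Larp1 control their translation. That control acts on translation and is not read by RNA levels. When ribosome assembly is disturbed, free Rpl5 and Rpl11 bind the p53 regulator Mdm2.

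Libraries held 17.9 to 25.6 M assigned fragments, as far as the FPKM give them back. Values are FPKM, fragments scaled to the length of the gene's exons and to the depth of the library, and a group mean is given with its SD over 3 libraries. Stromal markers, which define the labelled cell type, were present: all 12 in the table were tested, and their summed FPKM was 1900 to 1930 in control PF, 1840 to 1880 in TNBS PF and 1950 to 2020 in PBS, with no overlap. Pdgfrb, a growth factor receptor of stromal cells, fell by 0.42 on the log2 scale between PBS and TNBS PF (limma adjusted p = 2.61e-05). Its relative Pdgfra fell by 0.36 (adjusted p = 0.000215) and the collagen gene Col1a2 fell by 0.29 (adjusted p = 0.000219). Nt5e, another stromal marker, rose by 0.44 (adjusted p = 0.00361). Of the 12 markers 5 fell and 2 rose in this comparison, where 8.88% of all tested genes fell and 7.8% rose. Most markers of cells that fluid might carry were low. The 9 lymphocyte markers in the table, the 6 erythroid and the 7 neutrophil markers each had a mean FPKM under 1, with Cd3d and S100a9 at 0 in every library. Of 12 macrophage markers 9 had a mean FPKM under 1 and Ptprc was at most 0.00306 FPKM. The macrophage sum was 18.4 to 20.4 FPKM in control PF, 19.4 to 21.7 in TNBS PF and 16.9 to 18.5 in PBS, mostly Cd14. The mesothelial sum, mostly Msln, was 46.3 to 47.8 FPKM in control PF, 52.8 to 58.1 in TNBS PF and 47.8 to 48.6 in PBS. Msln had a mean of 38.6 FPKM and Cd14 14.0. With TNBS PF, 3 of 4 tested mesothelial markers rose over control PF and 3 over PBS, and 0 fell. Of 3 tested macrophage markers 2 rose over PBS and 0 over control PF, and 0 fell. Of all tested genes 5.15% rose over control PF and 7.8% over PBS. Against PBS, control PF changed 0 markers of either list. The part of these marker levels in the results below was not tested. In bulk RNA, fewer cells of a type and less RNA per cell cannot be told apart.

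A library stood apart within its group. A filter on low values, an FPKM of 1 or more in 3 or more libraries, left 81 members. Over these, PBS 2 was the highest of the 3 PBS libraries in 70, or 86.4%, where over all 10537 tested genes it was the highest in 32.1%. The median member lay 0.121 below its own mean over the 9 libraries in PBS 1 and 0.109 below it in PBS 3, on the scale of log2(FPKM + 1), and at 0.000297 in PBS 2. The number of members called, their median difference and their summed share against PBS are therefore given with and without each PBS library. PBS 2 was singled out as the highest over these same members, so a larger difference without it follows from that choice. Other counts and medians against PBS include PBS 2.

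The letters around the annotated start of transcription are shown because the TOP tract sits there, and the members below are 8 that the test called between TNBS PF and PBS and, last, 2 that it did not. Each window runs from 30 letters before the RefSeq start (build GRCm38.p6) to 20 letters from it on, so that the annotated start is the letter after the first 30, and capitals mark the longest run of C and T.
Rplp2, chr7:141447621-141447670, plus strand: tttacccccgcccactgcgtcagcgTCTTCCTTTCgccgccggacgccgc
Rps18, chr17:33955646-33955695, minus strand: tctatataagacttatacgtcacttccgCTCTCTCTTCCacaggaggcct
Rpl14, chr9:120571487-120571536, plus strand: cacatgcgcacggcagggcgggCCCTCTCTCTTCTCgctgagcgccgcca
Rps6, chr4:86857348-86857397, minus strand: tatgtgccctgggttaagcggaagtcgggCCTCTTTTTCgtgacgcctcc
Rpl26, chr11:68901536-68901585, plus strand: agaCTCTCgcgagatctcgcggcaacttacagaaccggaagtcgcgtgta
Rps15, chr10:80292401-80292450, plus strand: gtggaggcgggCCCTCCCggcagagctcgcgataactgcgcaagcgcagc
Rps2, chr17:24720033-24720082, plus strand: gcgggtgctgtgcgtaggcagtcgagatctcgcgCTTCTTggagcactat
Rpl18, chr7:45718041-45718090, plus strand: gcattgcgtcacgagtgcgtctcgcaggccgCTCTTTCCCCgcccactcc
Rplp0, chr5:115559437-115559486, plus strand: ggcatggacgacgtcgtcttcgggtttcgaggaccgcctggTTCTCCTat
Rpsa, chr9:120127736-120127785, plus strand: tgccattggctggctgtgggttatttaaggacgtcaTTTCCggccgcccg

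In the first 4 windows the annotated start was a C inside the tract, as the TOP definition asks. Of the members called between TNBS PF and PBS that had a RefSeq promoter, only these 4 had such a start. A further 21 lacked it, so the share among the windows shown is not the share among called members. In the other 6 windows the annotated start was not a C with such a tract after it. In Rpl18 the start itself was outside the tract, and a run of 10 C and T letters began at the next letter. A RefSeq start can be several letters from the start used in a given cell, so these windows describe the annotation only. RefSeq promoters were used for 67 of the 87 members, 79 promoters in all. Members on chromosome 18, such as Rps14, were left out here, while the set of all promoters was not limited in this way. A C at the annotated start followed by at least 4 C or T stood in 17.7% of the members' promoters and in 2.51% of all 32851 promoters. CTTTCC or CTCTTT, which can overlap, stood on the gene's strand in the 50-letter window of 24.1% of the members' promoters and of 4.17% of all. On the opposite strand CTTTCC stood in 1.27% of the members' windows and 2.13% of all. CCGGAAG, the core letters bound by ETS factors, stood on either strand in the 250 letters before and 50 after the start in 34.2% of the members' promoters and in 8.86% of all.

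The members were among the most abundant transcripts of these cells. Their median FPKM was 215 over the 81 tested, where the median of all tested genes was 8.65, and 29 of the 100 genes with the highest mean FPKM were members. Levels were uneven among members, with 4 at 1000 FPKM or more, 11 from 500 to 1000, 45 from 100 to 500, 16 from 10 to 100, 5 from 1 to 10 and 6 under 1. The 10 highest held 40.0% of the members' summed FPKM. All annotated exons of a gene can be far longer than its transcript, and FPKM divide by them. Ranks and levels compared between members carry that limit. Large-subunit members had a median of 218 FPKM and small-subunit members 234.

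The highest was Rps3a1, a small-subunit protein, on chromosome 3 (86137940 to 86142702, minus strand, mm10). It had 1560, 1530 and 1470 FPKM in control PF, 1600, 1560 and 1570 in TNBS PF and 1440, 1500 and 1450 in PBS. The next was Rplp0, on chromosome 5 (115559467 to 115563727, plus strand), the base of the stalk on which the acidic proteins Rplp1 and Rplp2 sit to recruit elongation factors. It had 1370, 1360 and 1330 FPKM in control PF, 1350, 1370 and 1370 in TNBS PF and 1360, 1400 and 1380 in PBS. The ranges of Rps3a1 and Rplp0 did not overlap, so their order held in every library. Rps15 followed with a mean of 1280 FPKM over the 9 libraries, Rps2 with 1070, Rplp1 with 914 and Rpl41, the smallest ribosomal protein, with 845. Rps15 and Rplp0 overlapped in their ranges. The other stalk protein, Rplp2, was at 73.9 FPKM, far under Rplp1, although the pair is built into the stalk together. The FPKM divide by all annotated exons, 2072 bases for Rplp2 and 499 for Rplp1, while their transcripts have 421 and 499. In fragments the gap was smaller, with 2480 to 4225 for Rplp2 and 6967 to 11962 for Rplp1 over the 9 libraries.

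**Figure D1:**
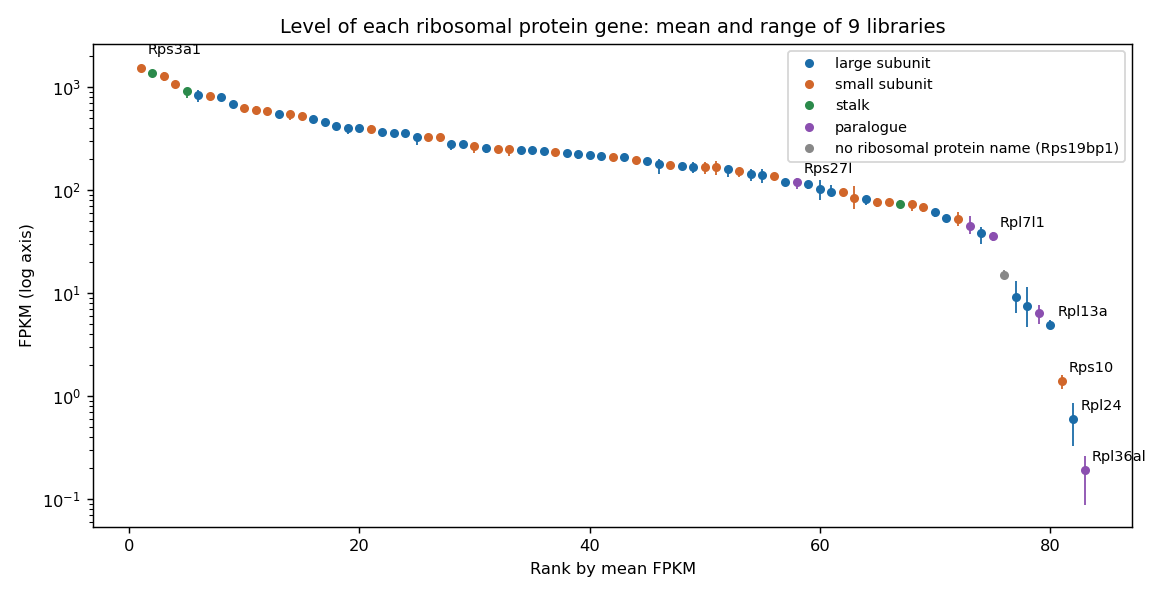
Mean FPKM of each member over the 9 libraries (log axis) against its rank, coloured by the kind of member, with a line from the lowest to the highest library. Most members lie between 100 and 1000 FPKM, and the lowest core members, Rpl24, Rps10 and Rpl13a, lie under 10. Members with a mean under 0.05 FPKM are not drawn.

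A few core members were listed at levels far under the rest. Rpl24 had a mean of 0.602 FPKM, Rps10 1.40, Rpl13a 4.92, Rpl23a 7.45 and Rpl35 9.07. Rpl13a, known outside the ribosome for silencing transcripts after interferon gamma and often used as a reference gene, had 4.98, 4.50 and 5.52 FPKM in control PF, 5.22, 5.12 and 4.89 in TNBS PF and 4.71, 4.71 and 4.66 in PBS. Each of these proteins is a standard part of the ribosome, and ribosomal protein genes have many processed copies in the mouse genome. The level of a single gene is uncertain where the authors' counting could split or drop shared fragments. The part of such counting in these low levels was not tested. How such fragments were counted was not given in the sources used here. Retrocopies named as pseudogenes were listed too: Rpl9-ps6 had a mean of 94.7 FPKM, Rps18-ps5 7.99 and Rpl36a-ps1 7.62. Of the ribosomal proteins that carry other names, Fau, a fusion of a ubiquitin-like protein with a small-subunit protein, and Rack1, a scaffold of the small subunit, each had a mean of 158 FPKM.

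The paralogues lay under most core members, and 4 of the 8 were too low to test. Rps27l, a p53-induced copy of Rps27, had 129, 117 and 116 FPKM in control PF, 131, 121 and 119 in TNBS PF and 103, 128 and 109 in PBS, against a mean of 168 for Rps27. Rps27rt, its retrogene, had a mean of 44.7 FPKM, and Rpl7l1 had 35.7. Rpl22l1, the copy of the RNA-binding protein Rpl22, had a mean of 6.41 FPKM beside 120 for Rpl22. The 4 untested paralogues are known for other tissues or as copies of X-linked genes. Rpl10l, the testis copy of Rpl10, was listed at 0 in every library, and Rpl39l, another testis copy, reached 3 fragments at most. Rpl36al, the copy of Rpl36a, had a mean of 0.191 FPKM. Rpl3l, the copy of Rpl3 found in striated muscle, had 0 fragments in all 3 control PF libraries, 0, 0 and 1 in TNBS PF and 3, 2 and 4 in PBS.

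Summed over members, the share of all FPKM was highest with TNBS PF and lowest with PBS. It was 9.36, 9.25 and 9.31% in control PF, 9.43, 9.58 and 9.37% in TNBS PF, and 8.64, 9.13 and 8.72% in PBS. No 2 groups overlapped. The share was 9.31% ± 0.0567 (SD, n = 3) in control PF, 9.46% ± 0.107 in TNBS PF and 8.83% ± 0.262 in PBS. TNBS PF was above PBS by 0.63 percentage points (ratio 1.07), control PF above PBS by 0.48 (ratio 1.05) and TNBS PF above control PF by 0.151 (ratio 1.02). Each had an exact two-sided permutation p of 0.1, the smallest that 3 against 3 libraries can give. Without PBS 2 the differences of TNBS PF and control PF from PBS were 0.779 and 0.629. They were 0.535 and 0.384 without PBS 1, and 0.577 and 0.426 without PBS 3. Without TNBS PF 2 the difference between the fluids was 0.0912. The same members held 4.57, 4.46 and 4.45% of the recovered fragments in control PF, 4.57, 4.64 and 4.56% in TNBS PF and 4.12, 4.43 and 4.21% in PBS. On that scale control PF overlapped TNBS PF, and the differences were 0.339, 0.242 and 0.0969 in the same order. The summed FPKM of large-subunit and stalk members was 1.13 to 1.16 times that of small-subunit members in every library.

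**Figure D2:**
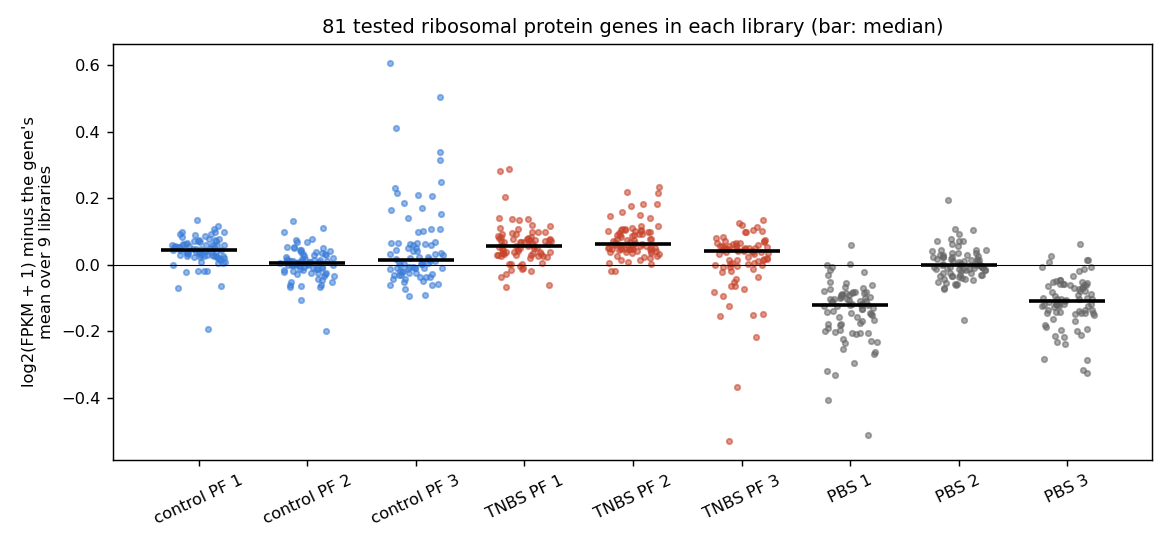
Each point is a tested member in a library, as its log2(FPKM + 1) minus its own mean over the 9 libraries, and the bar is the median of the 81 members. The medians are 0.0438, 0.00633 and 0.0146 in control PF, 0.0574, 0.0635 and 0.0407 in TNBS PF, and -0.121, 0.000297 and -0.109 in PBS, so PBS 2 lies with the control PF libraries.

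TNBS PF against PBS asks how these genes stood after fluid of TNBS mice relative to buffer. By limma on log2(FPKM + 1), with Benjamini-Hochberg adjustment over all 10537 genes and a threshold of 0.05, 38 of 81 tested members rose and 0 fell, where 7.8% of all tested genes rose and 8.88% fell. The rises were small: the median member differed by 0.127 on the log2 scale, where the median of all tested genes was -0.0114, and the differences ran from -0.0164 to 0.266. In 42 members every TNBS PF library was above every PBS library, where 15.5% of all tested genes were, and in 0 every one was below, where 19.7% were. Of 81 members 80 had a difference above 0, where 46.1% of all genes did. The count rested on the libraries of both groups. It was 59 without PBS 2, 15 without PBS 1 and 17 without PBS 3, where 7.74, 5.65 and 6.35% of all tested genes rose. It was 20, 14 and 23 without TNBS PF 1, 2 and 3, where 5.42, 5.34 and 4.93% of all rose. No member fell in any of these. Without PBS 2 the median was 0.158, without PBS 1 it was 0.106 and without PBS 3 it was 0.116.

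Both subunits took part. Of the 42 tested large-subunit members 18 rose, of 31 small-subunit members 18, and of the 3 stalk members 2, with medians of 0.121, 0.134 and 0.164. None of the 4 tested paralogues passed, nor did Rps19bp1, which had a log2 difference of 0.10 (adjusted p = 0.187).

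Rpl26, a large-subunit protein that in human cells also binds p53 mRNA, had the smallest p. It lies on chromosome 11 (68901583 to 68906989, plus strand). It had 426, 416 and 428 FPKM in TNBS PF and 352, 394 and 355 in PBS, with control PF between at 415, 400 and 403. No TNBS PF library overlapped a PBS library, and the log2 difference was 0.21 (SE 0.0396, limma adjusted p = 0.00334). Rps15, at the head of the small subunit, had 1370, 1390 and 1320 FPKM in TNBS PF and 1130, 1260 and 1160 in PBS, a log2 difference of 0.20 (SE 0.0405, adjusted p = 0.00457). Rps2, near the site where mRNA enters the small subunit, had 1130, 1150 and 1120 FPKM in TNBS PF and 1010, 1030 and 1030 in PBS, a difference of 0.15 (SE 0.0297, adjusted p = 0.00493). In Rps15 PBS 2 was the highest PBS library, and in Rps2 it tied with PBS 3 at this rounding.

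Rpl8, which lies beside the peptide-forming centre, had 706, 717 and 719 FPKM in TNBS PF and 634, 647 and 656 in PBS (log2 difference 0.14, adjusted p = 0.00556). Rplp2 of the stalk had 79.8, 79.7 and 74.5 FPKM in TNBS PF and 67.0, 70.7 and 67.9 in PBS (0.18, adjusted p = 0.00622). Rpl41 had 872, 933 and 853 FPKM in TNBS PF and 719, 823 and 739 in PBS (0.22, adjusted p = 0.00779). Groups were apart in all 3 genes. Rpl18, Rpl36, Rps18, Rpl14 and Rps3 also rose, with log2 differences between 0.12 and 0.23 and adjusted p from 0.00625 to 0.0112. The calls of these 5 members and of Rpl26, Rps15, Rps2, Rpl8, Rplp2 and Rpl41 held when any single library was left out. Quantile normalization ended those of Rps15 (adjusted p = 0.0738), Rpl41 (0.314), Rpl14 (0.0677), Rps3 (0.0906) and Rpl8 (difference 0), and Rps3 was also lost with no mean-variance trend (0.0534).

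Members with roles beyond the ribosome stood among the rest. Rps6, whose phosphorylation by S6 kinases is a standard readout of mTOR signalling, had 661, 671 and 644 FPKM in TNBS PF and 576, 619 and 604 in PBS. Its log2 difference was 0.14 (adjusted p = 0.0141), a call kept in 15 of 20 alternatives and lost, among others, without TNBS PF 1 (adjusted p = 0.0504) and without TNBS PF 2 (0.0628). Rpl5 had 287, 295 and 289 FPKM in TNBS PF and 255, 273 and 271 in PBS (0.12, adjusted p = 0.0177). Rpl11, its partner in binding Mdm2, had 196, 202 and 198 FPKM against 181, 192 and 181 (0.11, adjusted p = 0.0385). TNBS PF and PBS were apart in these 3 genes. The Rpl5 call was lost without TNBS PF 2 (adjusted p = 0.0702), TNBS PF 3 (0.0504) or PBS 1 (0.0571). It was also lost with no mean-variance trend (0.0634). The Rpl11 call was lost in 12 of 20 alternatives. Rps27a, a ubiquitin fusion, had 260, 258 and 262 FPKM in TNBS PF and 212, 256 and 227 in PBS (0.17, adjusted p = 0.0387), and its call was also lost in 12 of 20. Rps3a1 rose by 0.11 (adjusted p = 0.0494), a call likewise kept in only 8 of 20 alternatives, and under quantile normalization its difference was -0.0193.

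Some of the most used members did not pass. Rplp0, a common reference gene, differed by -0.02 between TNBS PF and PBS (adjusted p = 0.745), and it had the smallest within-group spread of all members, with an SD of 0.0186 on the log2 scale. Rpsa, the small-subunit protein also known as a laminin receptor, had 570, 602 and 596 FPKM in TNBS PF and 575, 581 and 592 in PBS, and the groups overlapped (log2 difference 0.02, adjusted p = 0.81). Rps19, mutated in human Diamond-Blackfan anaemia, differed by 0.03 (adjusted p = 0.516), Rpl22 by 0.03 (adjusted p = 0.685) and Rpl13a by 0.09 (adjusted p = 0.328). Rps18, another reference gene, had 277, 287 and 276 FPKM in TNBS PF and 231, 264 and 237 in PBS, apart, with a log2 difference of 0.20 (adjusted p = 0.00856). The directions of Rplp0, Rpsa and Rpl22 flipped under other scalings, at values of 0.00294, -0.00701 and -0.00877.

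**Figure D3:**
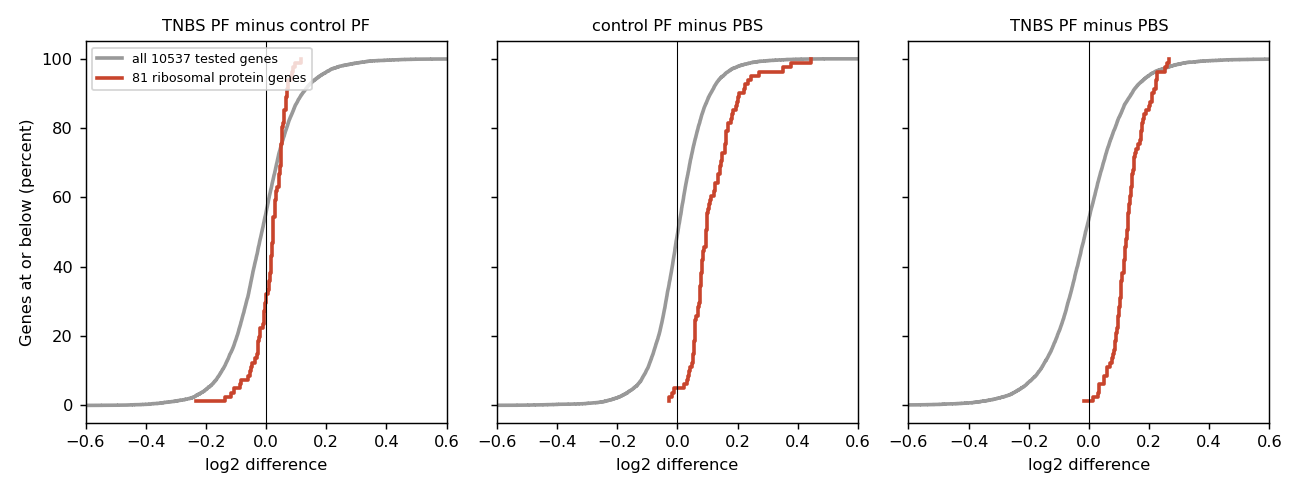
Cumulative share of genes (percent) at or below each log2 difference, for the 81 tested members in red and all 10537 tested genes in grey, in each of the 3 comparisons. The curve of the members lies to the right of all genes in both comparisons with PBS, with medians of 0.0964 and 0.127. The axis is cut at 0.6 either way.

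Control PF against PBS asks what fluid of control mice did relative to buffer, and it shares the PBS libraries with the comparison above. A single member of 81 rose and 0 fell, where 1.02% of all tested genes rose and 1.14% fell, 2.15% in all. That was Rpl41, with 896, 861 and 907 FPKM in control PF and 719, 823 and 739 in PBS, groups apart, and a log2 difference of 0.23 (SE 0.0486, adjusted p = 0.0304). Its call was lost without any single control PF library (adjusted p = 0.106, 0.0566 and 0.105) and without PBS 1 (0.0946) or PBS 3 (0.113), and also with no filter (0.148), quantile normalization (0.117) or no mean-variance trend (0.0953). The median member differed by 0.0964, where the median of all genes was 0.000946. It differed by 0.132 without PBS 2, 0.0784 without PBS 1 and 0.0858 without PBS 3. Groups were apart, higher, in 27 of 81 members, where 9.33% of all tested genes were, and lower in 0, where 9.32% were. Differences were above 0 in 77 members, where 50.5% of all genes were, and 47 members had an unadjusted limma p under 0.05, as did 15.6% of all tested genes. The next by p were Rps18 (0.18, adjusted p = 0.0506), Rpl37a (0.23, 0.051), Rplp1 (0.18, 0.0593) and Rps3 (0.11, 0.0675). Without PBS 2, 1 and 3 the count was 32, 0 and 0, where 2.86, 1.62 and 1.31% of all tested genes were called. With voom on the recovered fragments it was 22, where 3.55% of all were.

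TNBS PF against control PF asks whether fluid of TNBS mice differed from fluid of control mice, and it is also the difference between the other two comparisons. By limma 0 of 81 tested members passed, where 10.6% of all tested genes did, 5.15% higher and 5.45% lower. At an unadjusted p under 0.05 there were 6, where 25.3% of all tested genes had one, and voom called 2, where it called 14.7% of all. The median member differed by 0.0221, or 0.0389 without control PF 1, 0.0144 without control PF 2, 0.0402 with median-ratio scaling and 0 with quantile normalization, where the median of all genes was -0.0142, and 55 members had a difference above 0, where 44.3% of all genes did. In 13 members groups were apart, higher, where 13.6% of all tested genes were. Rps2 came nearest, with 1130, 1150 and 1120 FPKM in TNBS PF and 1090, 1050 and 1040 in control PF (log2 difference 0.10, adjusted p = 0.0597). Rpl7a followed, with 371, 375 and 370 FPKM against 361, 350 and 341 (0.09, adjusted p = 0.0684). Both had groups apart, and these were the 2 that voom called (adjusted p = 0.00373 for Rps2 and 0.0274 for Rpl7a). Rpl7l1, Rpl8, Rpl29 and Rpl5 were the other members with an unadjusted p under 0.05, all with positive differences, and their adjusted p ran from 0.163 to 0.195. Rps19 was the only member lower in every TNBS PF library (78.5, 76.1 and 75.2 FPKM) than in every control PF library (79.0, 81.3 and 79.5), where 18.2% of all tested genes were lower in this way, with a log2 difference of -0.06 (adjusted p = 0.242).

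**Figure D4:**
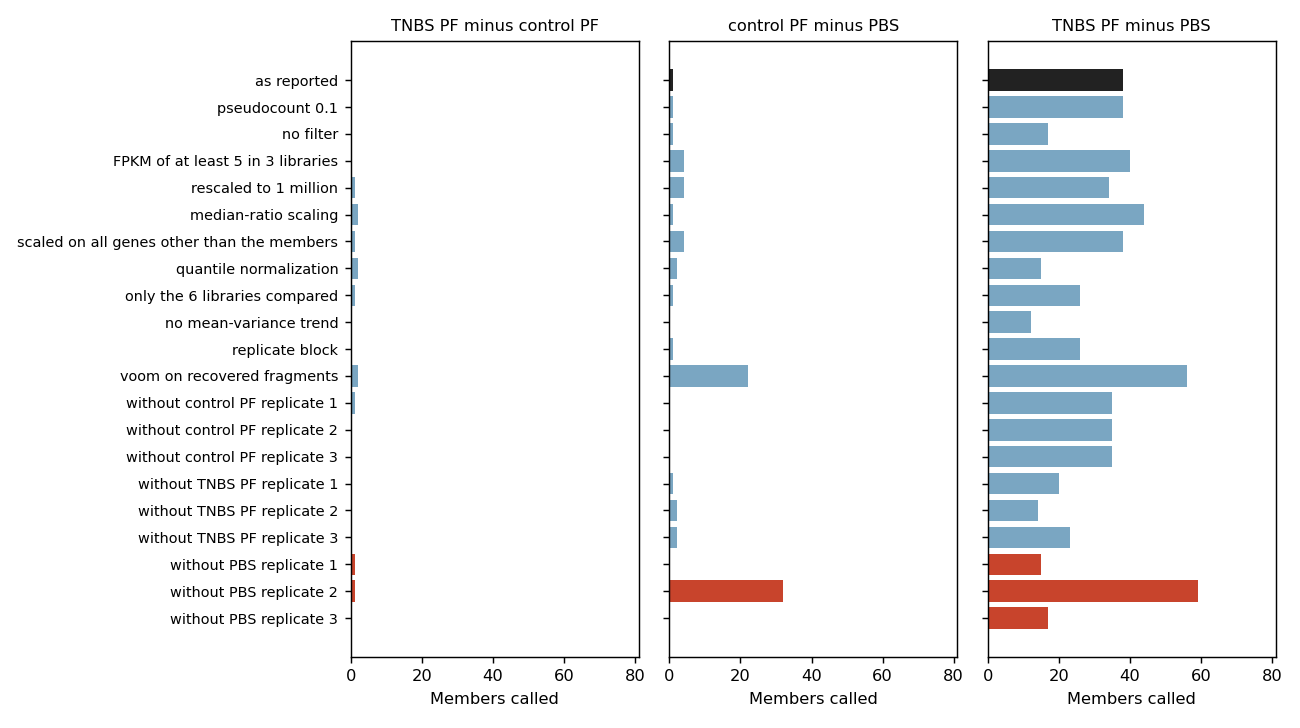
Number of tested members called (bars from 0, axis to 81) as reported in black and under each alternative, for the 3 comparisons, with the settings that leave out a PBS library in red. For TNBS PF against PBS the count runs from 12 to 59, for control PF against PBS from 0 to 32 and for TNBS PF against control PF from 0 to 2. Over the same settings 8.59 to 22.2%, 0.636 to 3.55% and 4.84 to 15.2% of all tested genes were called, in that order.

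In 61 members, or 75.3%, PBS 1 and PBS 3 were both below all 6 libraries with fluid, where 8.23% of all tested genes were, and in 58 members PBS 2 was above the lowest of those 6. These counts were chosen after the values were seen. PBS 1 and PBS 2 had nearly equal depths, 17.9 and 18 M assigned fragments, and PBS 3 had 20.3 M. What sets PBS 2 apart was not tested.

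The members moved together across libraries. Over the 9 libraries the median correlation between 2 members was 0.702 (3240 pairs, 95% above 0), a description, since all points share libraries, depth and normalization. Pairs of other genes were not measured, so whether this value is particular to the members was not tested. Rps25 (0.979) and Rpl41 (0.977) lay nearest the mean pattern of the other members. Rplp0 (-0.258) and Rpsa (-0.134) did not follow it. The genes outside the list with the pattern most like the members' mean, among 10456, were Snrpg (r = 0.961), a core protein of spliceosomal particles, Gtf2f2 (0.959), a general transcription factor subunit, Rhno1 (0.946), Tmsb10 (0.944), an actin-binding peptide, and Tle5 (0.94). Tmsb10 had 653, 643 and 662 FPKM in control PF, 685, 711 and 675 in TNBS PF and 539, 599 and 557 in PBS, so it too was lower in every PBS library, with PBS 2 the highest of the 3.

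Members with short transcripts varied more between libraries of a group, by their median. The median within-group SD on the log2 scale was 0.0781 for the 15 tested members with a transcript under 500 bases and 0.052 for the other 66, with a rank correlation of -0.598 between SD and length over 81 members. Rpl23a (SD 0.37), Rpl35 (0.342), Rps29 (0.212) and Rpl38 (0.176) spread most. Rpl23a and Rpl35, at 560 and 946 bases, are not among the short members and lay under 10 FPKM. Rps29 had 83.5, 84.9 and 109 FPKM in control PF, 90.0, 95.2 and 70.2 in TNBS PF and 64.8, 82.3 and 65.4 in PBS. Its groups overlapped, and its log2 difference between TNBS PF and PBS of 0.26 did not pass (adjusted p = 0.164). Rpl39, at the peptide exit tunnel, had a difference of 0.19 that likewise did not pass (adjusted p = 0.181). The short members had a median of -0.201 in PBS 1, -0.143 in PBS 3, 0.101 in control PF 3 and -0.0384 in TNBS PF 3 relative to their own means. The 71 other tested genes this short had medians of -0.108 in PBS 1, 0.0232 in PBS 2 and -0.0723 in PBS 3. The short members' median difference was 0.164 between TNBS PF and PBS and 0.167 between control PF and PBS, against 0.12 and 0.0845 for longer members. Between TNBS PF and control PF it was -0.0262 against 0.0287. Length moved with the differences, and its part in them was not tested.

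**Figure D5:**
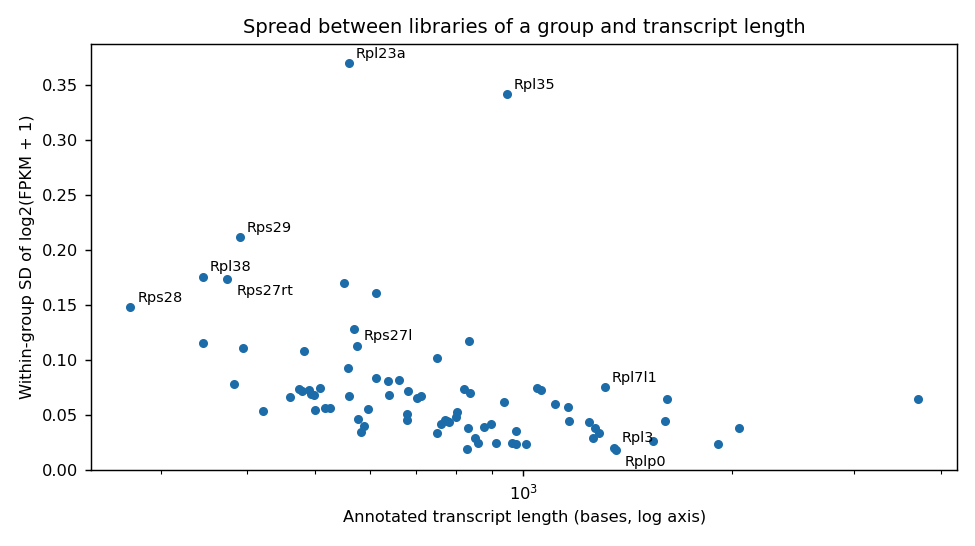
Within-group SD of log2(FPKM + 1) of the 81 tested members against annotated transcript length (log axis), each point a member. Rplp0 and Rpl3, with transcripts over 1000 bases, lie at the bottom (SD 0.0186 and 0.0202), and short members such as Rps28, Rpl38 and Rps29 lie higher.

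Called members were found both with and without the start sequences shown above. Between TNBS PF and PBS, 4 of 14 tested members with a C and tract at the annotated start rose (median 0.136) and 21 of 47 without it (median 0.125). With CCGGAAG in the promoter 12 of 25 rose (median 0.14), and without it 13 of 36 (median 0.116). With CTTTCC or CTCTTT in the window 4 of 17 rose (median 0.125), and without either 21 of 44 (median 0.127). Between control PF and PBS the medians with and without were 0.137 and 0.0836 for the C and tract. They were 0.108 and 0.0937 for CCGGAAG, and 0.0784 and 0.0994 for CTTTCC or CTCTTT.

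Other genes of translation were read from lists. Of 77 tested mitochondrial ribosomal protein genes, which serve the separate ribosomes of mitochondria, 8 rose and 1 fell between TNBS PF and PBS (median 0.0545), 0 changed between control PF and PBS (7 at an unadjusted p under 0.05), and 4 rose between TNBS PF and control PF. From PBS to TNBS PF 7.8% of all tested genes rose and 8.88% fell, and from control PF 5.15% rose and 5.45% fell. Between control PF and PBS 2.15% of all were called and 15.6% had an unadjusted limma p under 0.05. These shares are the background of all these lists, and the mitochondrial counts of rises lie near them. Mrpl38 had 14.9, 13.5 and 14.0 FPKM in TNBS PF and 12.5, 11.6 and 11.8 in PBS (log2 difference 0.22, adjusted p = 0.00863). Of 24 elongation factors and other mRNAs with a TOP tract, 4 rose between TNBS PF and PBS (median 0.0373). Between TNBS PF and control PF 4 rose (median 0.0533). Between control PF and PBS 0 changed, 10 had a difference above 0, where 50.5% of all genes did, and the median was -0.011. Eef1g, a subunit of the factor that reloads elongation factor with GTP, had 277, 286 and 280 FPKM in TNBS PF, 262, 266 and 264 in control PF and 240, 237 and 253 in PBS. It differed by 0.21 between TNBS PF and PBS (adjusted p = 0.000523), with groups apart. Npm1, a nucleolar assembly factor, rose between TNBS PF and control PF by 0.11 (adjusted p = 0.025), a call kept in 12 of 20 alternatives. Rack1 (0.14, adjusted p = 0.00929) and Fau (0.11, adjusted p = 0.0414) rose between TNBS PF and PBS with the members, and the Fau call was kept in 8 of 20 alternatives.

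Of 24 genes of mTOR signalling and translation control, 6 rose and 1 fell between TNBS PF and control PF, and 6 rose and 1 fell between TNBS PF and PBS. Medians were near 0, at 0.00862 and 0.0012. Atf4, the transcription factor of the integrated stress response, had 134, 140 and 149 FPKM in TNBS PF, 109, 105 and 108 in control PF and 102, 103 and 111 in PBS. It rose by 0.39 over control PF (adjusted p = 0.000105) and by 0.42 over PBS, with groups apart in both. Eif4ebp1, the cap-binding repressor that mTOR phosphorylates, rose by 0.27 over control PF (adjusted p = 0.000306), with 49.3, 51.4 and 51.3 FPKM in TNBS PF against 43.1, 40.6 and 41.7. Rheb, the GTPase that activates mTOR, rose by 0.24 (adjusted p = 0.00255) and Sesn2, an inhibitor of mTOR, by 0.28 (adjusted p = 0.0273), the latter a call kept in 13 of 20 alternatives.

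Of 9 genes tied to free ribosomal proteins and p53, 5 rose between TNBS PF and control PF, 0 fell, and 1 rose between TNBS PF and PBS. Between control PF and PBS 0 changed, where 2.15% of all tested genes did. At an unadjusted limma p under 0.05 there were 2, where 15.6% of all had one. A difference above 0 was found in 1, where 50.5% of all had one, and the median was -0.0587. Grwd1, a nuclear binding partner of ribosomal proteins, had 12.2, 11.8 and 12.9 FPKM in TNBS PF and 10.6, 10.6 and 10.3 in control PF, with 11.3, 10.8 and 12.2 in PBS (log2 difference 0.21, adjusted p = 0.0163). Ipo7, which imports ribosomal proteins into the nucleus, had 52.6, 50.9 and 51.1 FPKM against 46.7, 47.6 and 45.9 (0.14, adjusted p = 0.00873). TNBS PF and control PF were apart in both. Trp53 itself, which encodes p53, rose by 0.12 (adjusted p = 0.039), a call kept in 10 of 20 alternatives.

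The authors' deposited table carries fold changes and p-values of its own, and whether those p-values were adjusted was not given in the sources used here. In the authors' deposited table, 58 of 86 members with a value were higher at p under 0.05 for TNBS PF against PBS and 0 lower, where 17.7% of all genes with a p had one under 0.05. In the authors' deposited table the counts were 37 and 0 for control PF against PBS (6.83% of all genes) and 20 and 0 for TNBS PF against control PF (15.7%).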

How the data were processed

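Total RNA was sequenced from 9 libraries in 3 groups of 3, grouped by sample titles. The authors deposited FPKM per gene with their own log2 fold changes and p-values. Per the submitters' processing notes, reads were trimmed with cutadapt 1.15 and mapped to mm10; the aligner, counting and strand setting were not given in the sources used here. With union exon lengths of GENCODE M21, 97.2 to 97.5% of values worth up to 200 fragments came out whole within 0.05 of a fragment, which gave depths of 17.9 to 25.6 M assigned fragments. No 2 libraries of a group agreed within sampling noise.

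A gene needed an FPKM of 1 or more in 3 or more libraries, and the 10537 such genes were tested with limma 3.58.1 (R 4.3.3, mean-variance trend) on log2(FPKM + 1), a scale that understates changes of low genes, all 9 libraries in one fit, with Benjamini-Hochberg adjustment over all and a threshold of 0.05. Of 87 members 81 passed the filter. The procedure was tested on simulated data. The summed share was compared by exact permutation. Alternatives covered the pseudocount, filter, scaling, trend, samples fitted, replicate block, voom on recovered fragments and leaving out each library; the share of fragments was added after seeing the data.

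Members and gene lists were chosen with earlier results of these data known. Named members were the paralogues, the 6 highest and 6 lowest, the 12 of smallest p per comparison and a preset list; from other lists, up to 4 called genes per comparison or the gene of smallest p; and the 5 genes most alike in pattern. Rps10, the retrocopies, Rpl23a, Rpl35, Rpl4, Rpl38, Rps25, Rps27, Rpl3, Rps28 and Rps19bp1 were named after their values were seen. Some genes that the rule names are not reported here. Start windows were cut from RefSeq promoters (GRCm38.p6).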

Additional observations from a re-analysis of the deposited data

How the results depend on the processing

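For TNBS PF against PBS the number of members called was 38 as reported, 17 with no filter (16 higher and, lower, Rpl3l), 15 with quantile normalization (14 higher and, lower, Rpl4) and 12 with no mean-variance trend, and it ran from 14 to 59 when a library was left out. Of all tested genes, 16.7% were called as reported, 8.59% with no filter, 15.6% with quantile normalization and 13.9% with no trend. With a library left out it was 10.9 to 16.5%. The median difference of 0.127 ran from 0.0825 with quantile normalization to 0.158 without PBS 2 over the 20 alternatives. For control PF against PBS the number was 1 as reported, 1 with no filter (Rpl3l, lower), 4 with FPKM of at least 5, 4 rescaled to equal totals, 4 scaled on all genes other than the members, 2 with quantile normalization, 0 without the trend and 22 with voom, and from 0 to 32 when a library was left out. For control PF against PBS, 2.15% of all tested genes were called, 0.636% with no filter and 3.54% with FPKM of at least 5. It was 2.34% rescaled, 2.41% scaled on other genes, 2.45% with quantile normalization, 1.11% without the trend and 3.55% with voom. With a library left out it ran from 1.09 to 2.86%. For TNBS PF against control PF the number of members called was 0 as reported, 1 rescaled to equal totals and 1 scaled on other genes. It was 1 with the 6 libraries compared, 2 with median-ratio scaling, 2 with quantile normalization and 2 with voom. When a library was left out it ran from 0 to 1. For TNBS PF against control PF, 10.6% of all were called, 10.1% rescaled, 10.2% scaled on other genes and 12.6% with the 6 libraries. It was 10.6% with median-ratio scaling, 10.1% with quantile normalization and 14.7% with voom, and 6.27 to 11.9% with a library left out. The direction of the summed share held in all 10 alternatives of each comparison. The rescaling to equal totals is among these 10, and it cannot change a share.

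Of the single genes' values under alternatives, 11 changed sign, 269 lost a call, 60 gained a call and 1910 kept their sign and their side of the threshold. The values of changed sign lay near 0, but the reported difference of Rps3a1 was a called rise of 0.11. For TNBS PF against PBS signs changed in Rpsa (-0.00701 rescaled, -0.0088 with quantile normalization, from -0.000471 without TNBS PF 2 to 0.0389 without TNBS PF 1), Rplp0 (0.00294 with median-ratio scaling), Rps3a1 (-0.0193 with quantile normalization), Rpl22 (-0.00877 with quantile normalization, -0.0147 without PBS 1, from -0.0203 without TNBS PF 2 to 0.0672 without TNBS PF 1) and Rps27rt (-0.0155 without PBS 3, from -0.0228 without TNBS PF 2 to 0.15 without PBS 2). For TNBS PF against control PF the sign of Rpl10a changed (-0.0114 with quantile normalization). Quantile normalization gives genes at the same high rank the same value, so Rpl8 differed by 0 there. The cause of the other changes was not tested.

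Replicate numbers are shared across groups, but the correlation of deviations between same-numbered libraries ran from -0.0978 to 0.0746, so the numbers were not taken as pairs. With the replicate number as a block, 26 members were called for TNBS PF against PBS, where 14.6% of all tested genes were. For control PF against PBS 1 was called (1.6% of all), and for TNBS PF against control PF 0 (8.6% of all). Members above 10 FPKM each had at least 274 fragments in every library, while Rpl3l, Rpl39l, Rpl36al and Rps23rg1 rest on 0 to 7 fragments. The part of counting noise in the small differences was not tested.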
